A study of Mus musculus with 12 samples.

Results

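A group of 138 genes was chosen from the RNA-seq values of mouse embryonic stem cells (mESCs) because their level after deletion of *Prdm10* exceeded the vehicle level at Day 4 and stayed close to it at Day 2. The values that chose them were CPM, the expected count of a gene divided by the library total and multiplied by 1000000. Selected genes had a mean CPM over the 12 libraries of 3 or more, a log2 ratio of OHT over EtOH (0.1 added to each group mean) of 0.6 or more at Day 4 and one between -0.25 and 0.25 at Day 2. All 3 Day 4 OHT libraries also had to lie above all 3 Day 4 EtOH libraries, and mitochondrially encoded genes, *Atp6ap1* and the *Rnu3b* genes were left out by name. Of 54146 genes in the files, 11328 reached the minimum level, 277 of these also reached the Day 4 ratio, 141 also kept within the Day 2 window, and 138 remained. The Day 4 excess and the flat Day 2 ratio of these genes are therefore a description and not a finding. Fold changes and calls in these contrasts are printed below as descriptions only, and nothing is read from them as a test.

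The cells carried floxed *Prdm10* alleles (Prdm10F/F) and, from the *Rosa26* locus, CreERT2, a Cre recombinase that enters the nucleus when it binds 4-hydroxytamoxifen (OHT). They were of C57BL/6 origin and grew in serum with LIF. Cultures received 50 nM OHT for 24 h, which gave the genotype labelled Prdm10del/del, or the same volume of ethanol (EtOH), and RNA was taken at Day 2 or Day 4 after induction, with 3 libraries in each of the 4 groups. All groups shared the floxed alleles and the recombinase, and no line treated with OHT without floxed alleles was analysed here, so that deletion and exposure to OHT cannot be told apart. The labels did not say whether the 3 libraries of a group came from separate cultures, so that errors measure the spread between these libraries.

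Library totals ranged from 35017667 to 41409992 expected counts. The gene-level count of *Prdm10* (chromosome 9, 31280538 to 31381723, plus strand, GRCm38) was higher under the OHT label, at 51.2 to 58.9 CPM against 19.6 to 23.9 CPM under the EtOH label. The paper states that Cre removes an exon of *Prdm10* and shifts its reading frame. It checked the loss by PCR of that exon and by protein. A count over the whole gene does not measure this loss, and why the count was higher was not tested. OHT and EtOH below refer to the labels. Transcripts of mitochondrially encoded genes took 1.32% to 1.40% of counts in the Day 4 OHT libraries and 1.73% to 1.98% in the other 9, and the part of this in the values below was not tested. The pluripotent cell markers summed to 4225 to 4307 CPM in Day 4 EtOH, 4462 to 4521 in the Day 2 libraries and 4680 to 4786 in Day 4 OHT, so that Day 4 EtOH was lowest and Day 4 OHT highest, as for the median member, and their part in the values below was not tested. By contrast, the fibroblast feeder markers summed to between 18.9 and 25.2 CPM over all libraries and the two-cell-like state markers to at most 4.22 CPM. In bulk samples, fewer cells of a type and less RNA per cell cannot be told apart.

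The selected genes came from many pathways, and 45 of the 138 were on 1 of the 19 gene lists used here. The 2 most abundant belong to sugar use, and 8 members to the lysosome. In glycolysis, glucose enters through transporters of the plasma membrane and is split by aldolase and other enzymes to give pyruvate, and mESCs grown in serum draw on it heavily. Lysosomes are acidified by a proton pump (the V-ATPase) and hold hydrolases that reach them by a mannose 6-phosphate tag. The folliculin complex acts with Rag GTPases on the lysosome surface to keep TFE3 and TFEB, activators of lysosomal genes that bind the sequence CACGTG, out of the nucleus.

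The group did not behave as one set of rising genes. Relative to the Day 2 EtOH mean, the median member lay between -0.33 and -0.26 log2 units in the 3 Day 4 EtOH libraries and between 0.43 and 0.47 log2 units in the 3 Day 4 OHT libraries. In CPM, 79 of the 138 were lower at Day 4 than at Day 2 in EtOH and higher in OHT, 29 were lower in both, 30 were higher in both and 0 were higher in EtOH and lower in OHT, a course that the selection made impossible. The downward part in EtOH was the larger of the 2 for 67 members and the upward part in OHT for 71. Thus the name "genes rising at Day 4" holds for OHT against EtOH of the same day, but not for the course of each culture: the Day 4 ratio equals the Day 2 ratio plus the OHT change minus the EtOH change, and a gene could enter by either route.

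**Figure D1:**
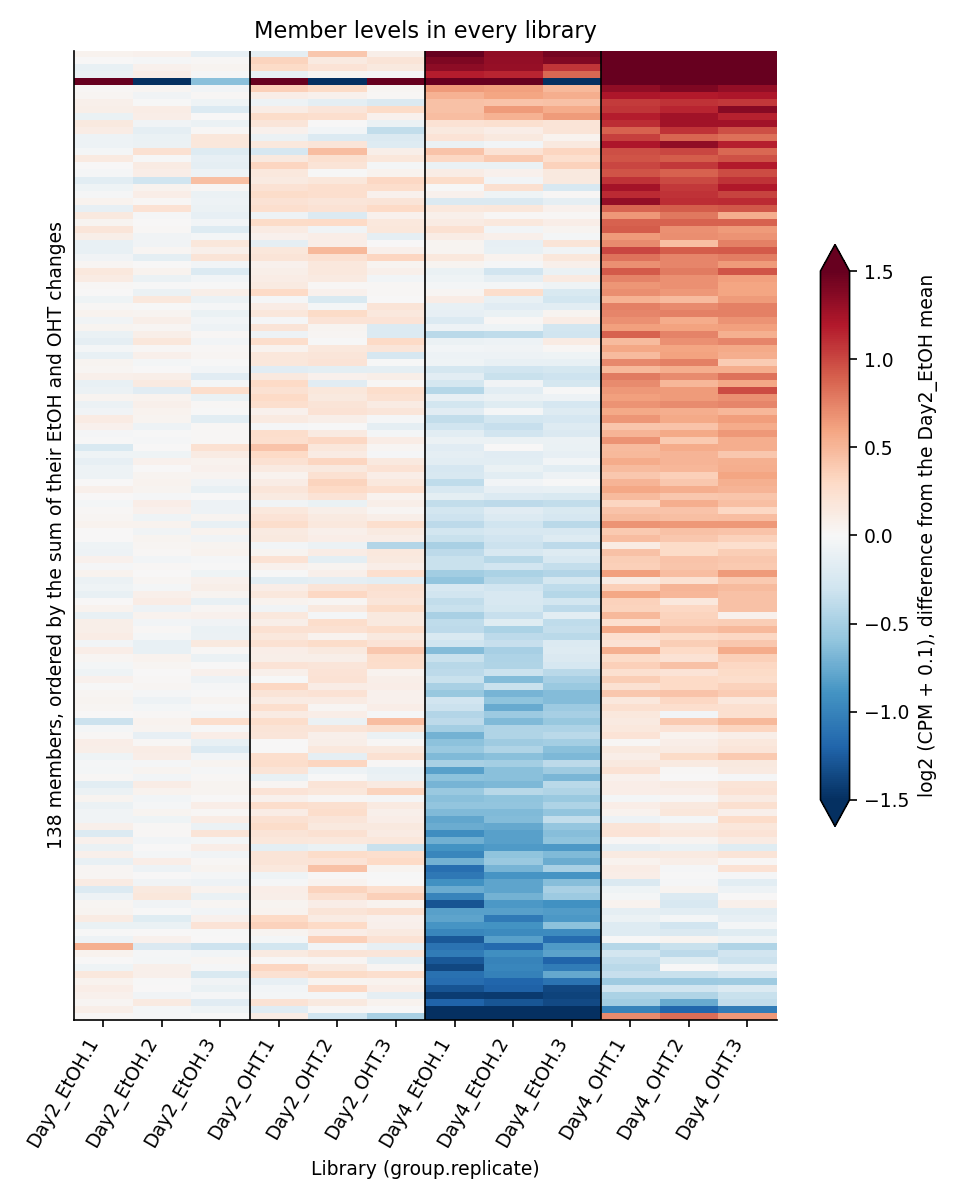
Level of each of the 138 members (rows) in each of the 12 libraries (columns), as log2 (CPM + 0.1) minus the mean of the 3 Day 2 EtOH libraries, with colours cut at 1.5 in either direction. The Day 4 EtOH columns are mostly blue (below Day 2). The Day 4 OHT columns are mostly red at the top and pale or blue towards the bottom, where members were lower in EtOH and mostly near or below their Day 2 level in OHT.

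The courses were also divided in the DESeq2 fits. In EtOH between the days, 73 of 132 members tested were called lower and 9 higher (adjusted p below 0.05 and mean normalised count above 100), where 20.5% and 20.6% of all genes tested were called lower and higher. In OHT between the days, 75 of 138 were called higher and 11 lower, against 30.7% and 23.0% of all genes. The median log2 fold change of the tested members was -0.34 in EtOH and 0.34 in OHT, beside -0.0015 and 0.036 for all genes tested. Of the members, 42 were called lower in EtOH with no call in OHT, 42 were called higher in OHT with no call in EtOH, 20 were called in both of these directions, 11 were called lower in both arms and 9 higher in both. The crossed calls were not counted over all genes, so nothing is read from how often each of these patterns occurred. These contrasts used the same libraries as the selection and are given as a description.

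**Figure D2:**
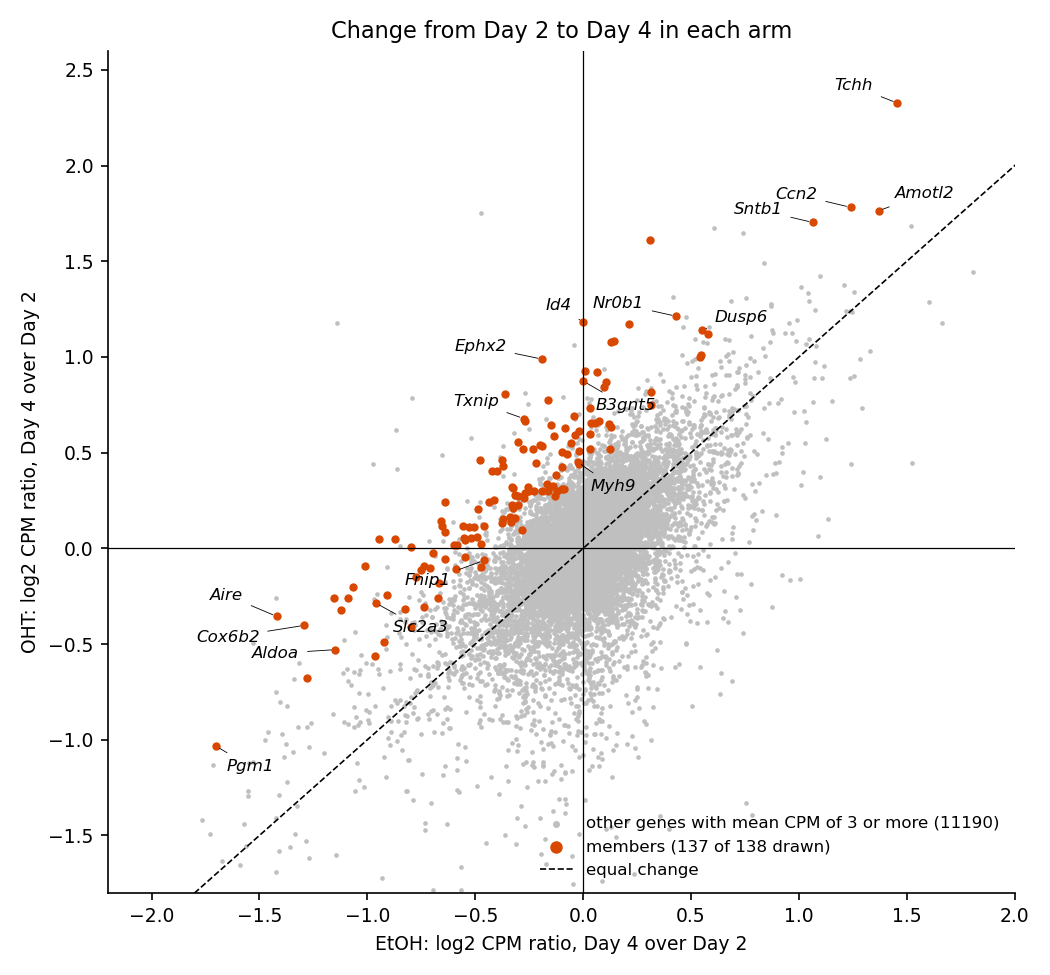
Change between Day 2 and Day 4 in EtOH (x axis) and in OHT (y axis), each as a log2 ratio of mean CPM with 0.1 added, for 137 members (orange) and 11190 other genes (grey; those beyond the axes, and the member Exosc6, are not drawn). The members run as a band above the dashed line of equal change, from Pgm1 and Aldoa at the lower left (lower in both arms) to Ccn2, Sntb1, Amotl2 and Tchh at the upper right (higher in both).

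Over whole libraries, the members took 0.586% to 0.603% of counts in Day 2 EtOH, 0.605% to 0.636% in Day 2 OHT, 0.378% to 0.387% in Day 4 EtOH and 0.623% to 0.629% in Day 4 OHT. Their sum was thus lowest in Day 4 EtOH (3814 ± 51.1 CPM, SD, n = 3), and the 3 Day 4 OHT libraries (6259 ± 28.3 CPM) lay within the range of Day 2 OHT (6245 ± 171 CPM). Without *Slc2a3* and *Aldoa*, the most abundant members, the other 136 members summed to 2162 ± 26.9 CPM in Day 4 EtOH, 2562 ± 34.9 in Day 2 EtOH, 2738 ± 43.9 in Day 2 OHT and 3562 ± 11.2 in Day 4 OHT, so that Day 4 OHT then stood above the rest. For 88 members (63.8%) all 3 Day 4 EtOH libraries lay below the other 9, for 86 (62.3%) all 3 Day 4 OHT libraries lay above the other 9, and 36 met both. The same held for 11.1%, 17.7% and 1.87% of all genes at the minimum level. The selection required the Day 4 OHT libraries to lie above the Day 4 EtOH libraries. The shares of the members therefore follow in part from it and are given as a description.

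At Day 4, DESeq2 called 136 of 137 members tested higher and 0 lower (also 0 lower at an unadjusted p below 0.05 and 0 in edgeR), where 23.5% of all genes tested were called higher and 21.7% lower, and 32.8% of genes at the minimum level had all 3 OHT libraries above all 3 EtOH libraries. Because the selection used this contrast, nothing is read from the count. The member tested without a call was the pseudogene *Gm2446*, and *Prss8* fell below the minimum count. At Day 2, 3 of 133 members were called higher (*1700019D03Rik*, *Vat1* and *Fnip1*) and 2 lower (*Txnip* and *Nr0b1*), beside 9.17% and 10.6% of all genes. The Day 2 window was centred on 0, but the members were not evenly spread within it. Of the 138, 116 had a Day 2 CPM ratio above 0, and the median was 0.13. Of the 9832 genes within that window, 49.2% had a ratio above 0. Those genes were not chosen by the Day 4 ratio, as the members were, and nothing is read from the difference. The difference between the days was called in the direction of a larger OHT effect at Day 4 for 130 of 138 members and in the other for 0 (0 at an unadjusted p below 0.05 and 0 in edgeR), beside 18.7% and 13.6% of all genes.

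Members just inside the Day 4 threshold were *Stx3* (log2 ratio 0.602) and *Fnip1* (0.603), and just outside were *Pfkl* (0.5996) and *Mus81* (0.5995). At the Day 2 limit, *Klf15* (0.249) and *1700019D03Rik* (0.248) were inside, and *Kansl1l* (0.2501) and *Cldn4* (0.2503) outside. At the minimum level, *Zfp711* (3.00 CPM) and *Rapsn* (3.01 CPM) were kept, and *Immp2l* (2.99 CPM) and *Spred3* (2.88 CPM) were not. The boundary thus passed through pathways that held members, since *Pfkl* encodes a phosphofructokinase of glycolysis and *Spred3* an inhibitor of ERK signalling.

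Glucose uptake and glycolysis gave the most abundant members, and all 3 of them were lower at Day 4 than at Day 2 in both arms. *Slc2a3* (chromosome 6, 122727809 to 122801640, minus strand) encodes the glucose transporter GLUT3. Its level was 1953, 1981 and 1965 CPM in Day 2 EtOH, 2018, 2112 and 2157 in Day 2 OHT, 999, 1011 and 1022 in Day 4 EtOH, and 1720, 1695 and 1739 in Day 4 OHT. The 3 Day 4 EtOH libraries were the lowest of the 12, and the Day 4 OHT libraries lay between them and all Day 2 libraries. The DESeq2 log2 fold change between the days was -0.98 (SE 0.03) in EtOH and -0.26 (SE 0.03) in OHT, so that the Day 4 log2 fold change of OHT over EtOH, 0.77 (SE 0.02), came with a decrease in both arms.

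*Aldoa* (chromosome 7, 126795234 to 126800751, minus strand), which encodes the aldolase that splits fructose 1,6-bisphosphate, behaved in the same way. It stood at 1474, 1419 and 1369 CPM in Day 2 EtOH, at 1307, 1459 and 1470 in Day 2 OHT, at 641, 623 and 658 in Day 4 EtOH, and at 985, 971 and 979 in Day 4 OHT. No library of one Day 4 group overlapped with the other, and both lay below Day 2. The same order was seen for *Pgm1*, whose product interconverts glucose 1-phosphate and glucose 6-phosphate. It had 85.7 to 95.7 CPM in Day 2 EtOH, 79.6 to 90.8 in Day 2 OHT, 26.1 to 28.7 in Day 4 EtOH and 39.2 to 44.9 in Day 4 OHT, and the log2 fold changes between the days were -1.73 (SE 0.06) in EtOH and -1.01 (SE 0.06) in OHT.

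Most genes of the list, with these 3 members counted in it, were called lower at Day 4 than at Day 2 in both arms. Of 34 glycolysis and glucose uptake genes tested, 26 were called lower between the days in EtOH and 3 higher, and in OHT 26 were called lower and 4 higher. The shares of all genes tested were 20.5% lower and 20.6% higher in EtOH, and 23.0% and 30.7% in OHT. The median log2 fold change of the list was -0.73 in EtOH and -0.34 in OHT. Accordingly, at Day 4 19 of the 34 were called higher in OHT than in EtOH and 3 lower, with a median log2 fold change of 0.27 beside 0.01 for all genes tested. *Tpi1* (triosephosphate isomerase), for example, had -1.5 in EtOH and -0.97 in OHT, and *Pgk1* (phosphoglycerate kinase) -1.42 and -0.94. The lactate exporter *Slc16a3* changed by -2.09 in EtOH and -1.79 in OHT, with a Day 4 value of 0.07 and no call. *Pfkp*, the platelet-type phosphofructokinase, went the other way, with -0.90 at Day 4. The selection on the Day 4 ratio thus took 3 genes from a pathway in which most genes moved between the days in both arms.

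**Figure D3:**
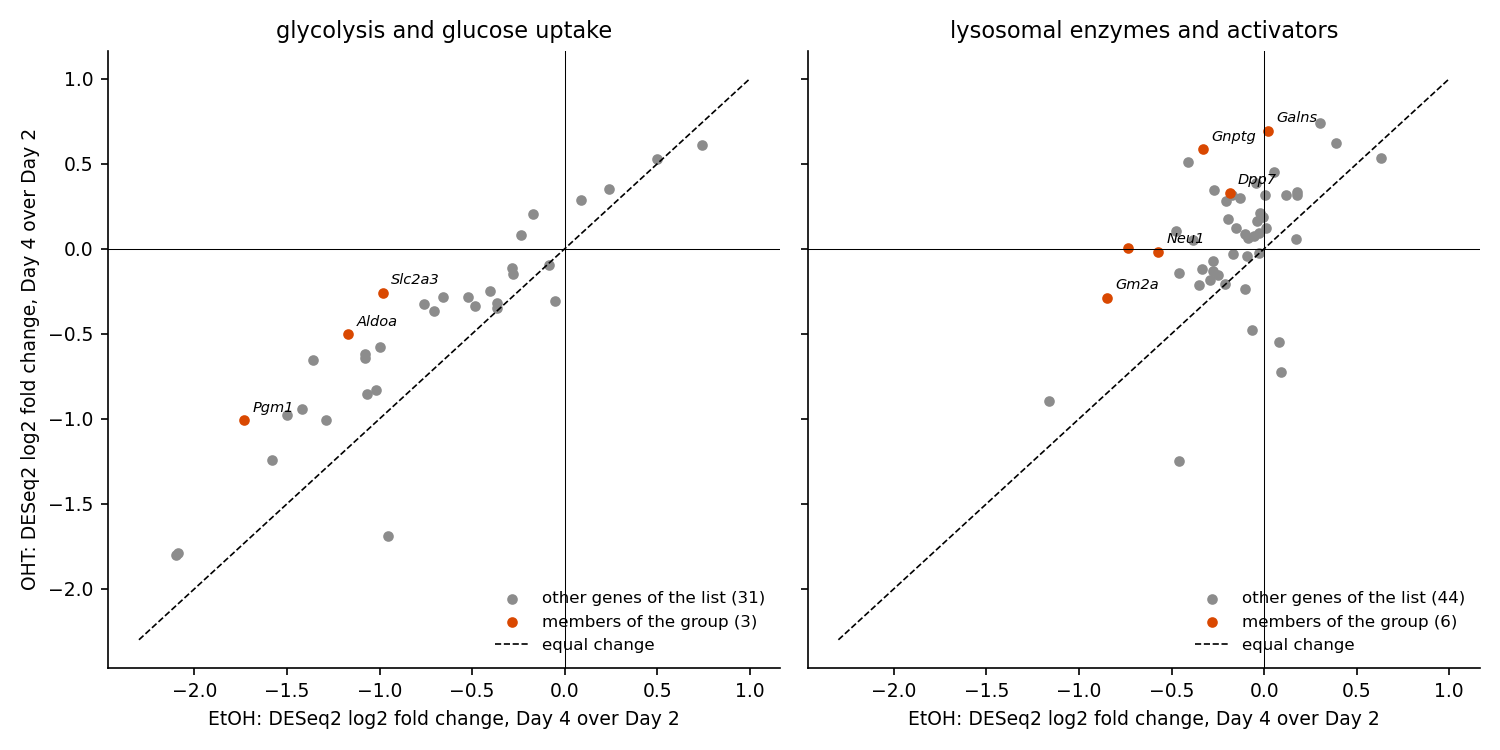
DESeq2 log2 fold change between Day 2 and Day 4 in EtOH (x axis) and OHT (y axis) for the tested genes of 2 lists, with members in orange (those described in the text are named) and the dashed line marking equal change. Most glycolysis genes lie below 0 on both axes and above the line, whereas lysosomal enzymes cluster near 0 with members on its upper left.

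*Txnip* (chromosome 3, 96557957 to 96561883, plus strand) encodes an arrestin-domain protein that binds thioredoxin and promotes the internalisation of glucose transporters, and its transcript is known to follow the supply of glucose. Unlike the glycolysis members, it was higher in Day 4 OHT than in any Day 2 library. Its values were 169, 165 and 161 CPM in Day 2 EtOH, 146, 149 and 149 in Day 2 OHT, 137, 134 and 137 in Day 4 EtOH, and 231, 240 and 241 in Day 4 OHT. The 2 treatments were thus in opposite order on the 2 days, with OHT below EtOH at Day 2 without overlap (log2 fold change -0.19, SE 0.04) and above it at Day 4 (0.81, SE 0.03). Of the 10 arrestin-domain and glucose-sensing genes tested, 6 were called higher at Day 4, among them *Arrdc3* (0.54) and *Klf10* (0.34), and 3 lower, *Arrdc4* (-0.13), *Mlx* (-0.24) and *Mlxip* (-0.71). The last 2 encode MLX and MondoA, which act together on the *Txnip* promoter when glucose is taken up.

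**Figure D4:**
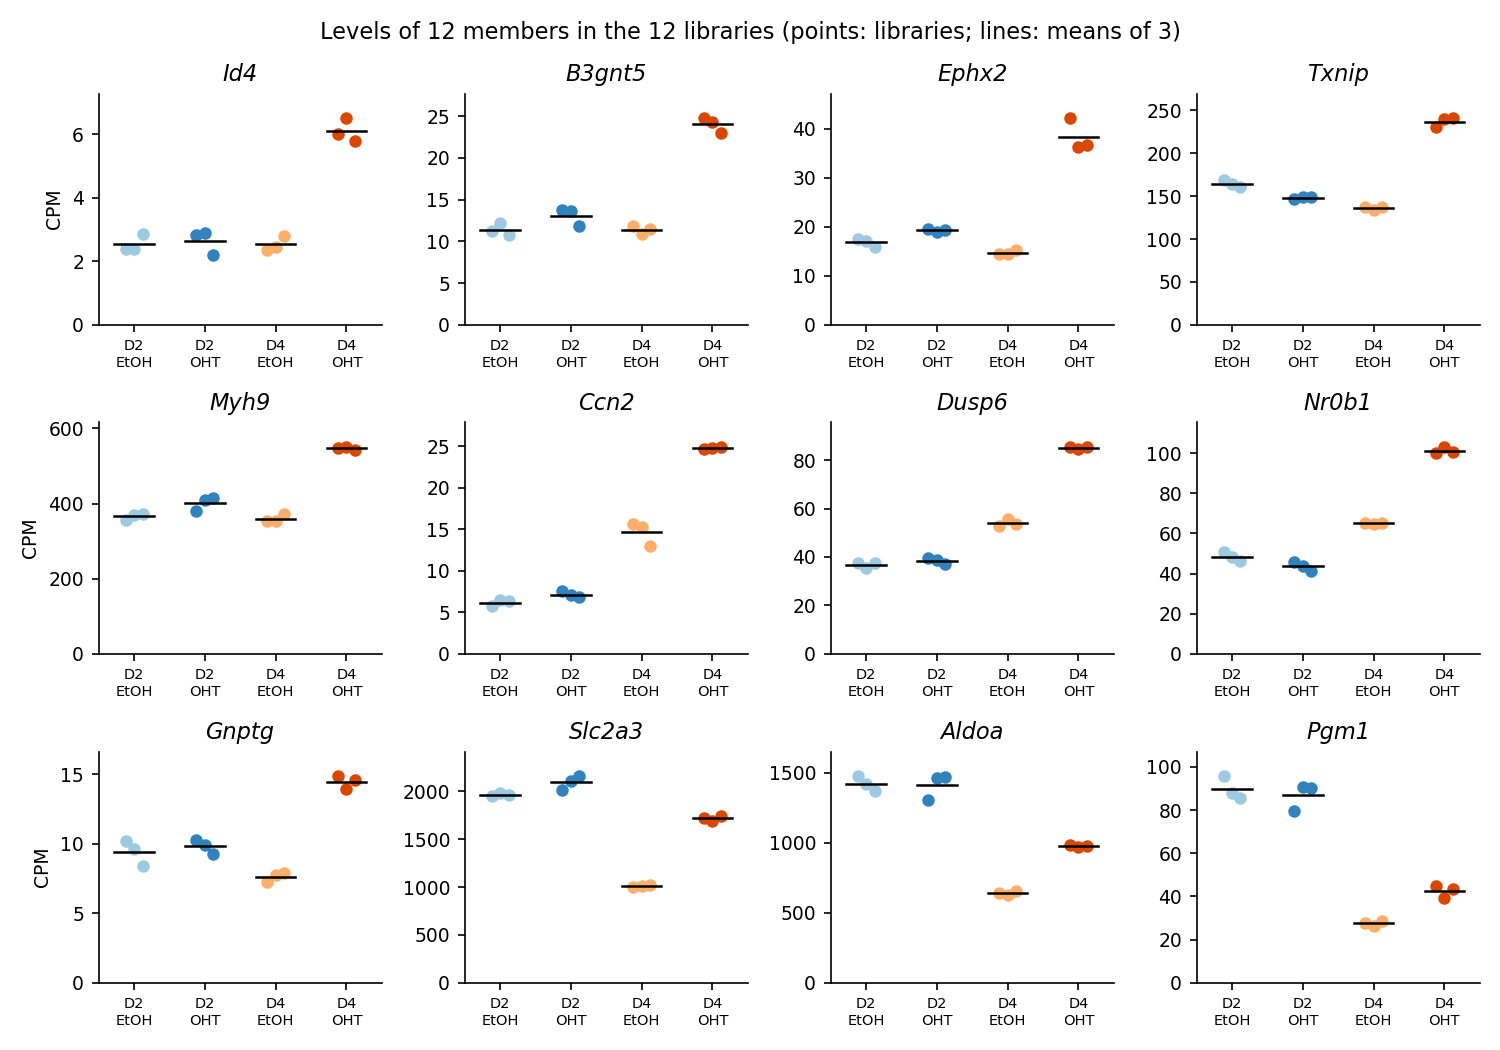
CPM of 12 members in each library (points) with the mean of the 3 libraries of each group (lines), with axes starting at 0. Id4, B3gnt5, Ephx2, Txnip and Myh9 were highest in Day 4 OHT with the other groups close together. Ccn2, Dusp6 and Nr0b1 were higher at Day 4 in both arms, and Slc2a3, Aldoa and Pgm1 were lower at Day 4 in both arms and lowest in EtOH.

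Lysosomal genes contributed 8 members. Among enzymes and activators they included *Gnptg*, *Neu1*, *Dpp7*, *Gm2a* and *Galns*, and among membrane proteins they were *Laptm5* and *Atp6ap2*. *Gnptg* encodes a subunit of the phosphotransferase that starts the mannose 6-phosphate tag, and had 10.2, 9.64 and 8.42 CPM in Day 2 EtOH, 10.3, 9.96 and 9.25 in Day 2 OHT, 7.24, 7.73 and 7.90 in Day 4 EtOH, and 14.9, 14.0 and 14.6 in Day 4 OHT. Day 4 EtOH was below and Day 4 OHT above all Day 2 libraries. *Dpp7*, a lysosomal dipeptidyl peptidase, ranged from 12.3 to 13.5 CPM in Day 4 EtOH and from 20.7 to 21.9 in Day 4 OHT.

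The sialidase *Neu1* and *Gm2a*, the activator that presents GM2 ganglioside to its hydrolase, differed from these in course. *Neu1* had 15.7 to 17.9 CPM in Day 2 EtOH, 11.02 to 12.1 in Day 4 EtOH and 17.9 to 19.8 in Day 4 OHT. *Gm2a* had 27.7 to 29.3, 15.9 to 16.2 and 25.5 to 25.8 CPM in the same groups. Their Day 2 OHT libraries had 18.4 to 19.98 CPM for *Neu1* and 29.5 to 33.7 for *Gm2a*. Both were called lower between the days in EtOH, and in OHT *Gm2a* was also called lower (log2 fold change -0.29) whereas *Neu1* had no call (-0.02). *Galns*, a sulfatase of keratan sulfate, was instead highest in Day 4 OHT, with 3.82 to 4.69 CPM in Day 2 EtOH, 3.81 to 4.74 in Day 4 EtOH and 5.71 to 7.10 in Day 4 OHT. *Laptm5*, a lysosomal membrane protein best known in blood cells, was higher at Day 4 in both arms (6.23 to 7.18 CPM in EtOH and 9.69 to 11.9 in OHT, from 3.96 to 4.93 in Day 2 EtOH). *Atp6ap2*, an accessory subunit of the V-ATPase, had 56.2 to 59.5 CPM in Day 4 EtOH and 87.0 to 91.8 in Day 4 OHT.

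Most genes of the lists they come from were called higher in OHT at Day 4, and the counts of this and every other list stand beside 23.5% of all genes tested called higher and 21.7% lower. Each list count includes the members on that list, which the selection chose by the Day 4 ratio. Of 50 lysosomal enzymes and activators tested, 33 were called higher and 7 lower (median log2 fold change 0.35), and of 43 membrane proteins and V-ATPase subunits 27 were called higher and 0 lower (median 0.29; at an unadjusted p below 0.05, 0 were lower in DESeq2 and 2 in edgeR, which called 0). Between the days in EtOH, 19 of the 56 enzymes and activators listed were called lower and 3 higher, beside 20.5% and 20.6% of all genes tested. In OHT, 9 were called lower and 20 higher, beside 23.0% and 30.7%. Outside the group, *Hexa* (1.31) had the largest Day 4 log2 fold change among the enzymes, and *Hyal2* (-2.63), *Ppt2* (-2.08) and *Asah1* (-0.83) the lowest. *Fnip1*, a partner of folliculin, was the member from the Rag GTPase, folliculin and TFE list, with 77.2, 75.9 and 82.2 CPM in Day 4 EtOH, 119, 119 and 120 in Day 4 OHT, and 106, 107 and 111 in Day 2 EtOH. Its Day 4 EtOH libraries were the lowest of the 12, and its Day 2 OHT libraries (130, 135 and 109 CPM) spanned the Day 4 OHT level. Of the 27 genes of that list tested, 8 were called higher and 9 lower, the lowest being *Flcn* itself (-3.11).

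Promoters of 106 members were found in RefSeq (GRCm38.p6, 250 bases before to 50 after each start). The E-box CACGTG was in at least 1 window of 17 of them (16%) and of 12.6% of the 8629 genes at the minimum level with a promoter, and 7.15% of all 32851 windows held it. The longer form TCACGTG, on either strand and always overlapping the E-box, was in 15 members (14.2%) and 7.63% of genes. With the first listed window of each gene alone, the shares for the E-box were 14.2% of members and 11% of genes, and for the longer form 12.3% and 6.77%. The windows below are those of the lysosomal, amino sugar and folliculin-partner members that held an E-box, with the E-box in capitals and 10 bases on each side. They were picked by gene class from the 17 members with one. The others, among them *Klf15*, *Bmi1*, *Commd3*, *Lrp3* and *Prkar2b*, belong to other classes and are not shown. Of the lysosomal members, only *Gnptg* and *Dpp7* had an E-box in a window. *Gnptg*, chr17:25240122-25240147, minus strand, *Dpp7*, chr2:25356390-25356415, minus strand, *Fnip1*, chr11:54438094-54438119, plus strand, and *Amdhd2*, at chr17:24163785-24163810, chr17:24163768-24163793 and chr17:24163741-24163766, minus strand, read as follows.
Gnptg: ggctgtcactCACGTGaccgtgagac
Dpp7: gccagactatCACGTGatgctgcccc
Fnip1: agtttgctgcCACGTGatacggctcg
Amdhd2 (farthest from the start): tggtcgccacCACGTGagcaccgcgg
Amdhd2 (middle): gcaccgcggcCACGTGacagcccctt
Amdhd2 (nearest): agctgagagtCACGTGatgcgacctg

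All 6 of these windows held the longer form on one strand or the other. The E-boxes began between 75 bases before (*Fnip1*) and 3 bases after (*Gnptg*) the annotated start of transcription. A match is a description of the letters and not evidence of binding. For the other motifs, an AP-1 site (TGANTCA) was in 5 members (4.72%) and 5.20% of genes, a cyclic AMP response element (TGACGTCA) in 1 (0.943%) and 3.91%, and a GC box (GGGCGG) in 78 (73.6%) and 71.4%.

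Glycan and amino sugar enzymes gave *B3gnt5*, *Amdhd2* and *A4galt*. *B3gnt5* (chromosome 16, 19760208 to 19772753, plus strand), which makes the precursor of lacto- and neolacto-series glycolipids, had 11.2, 12.2 and 10.7 CPM in Day 2 EtOH, 13.7, 13.6 and 11.9 in Day 2 OHT, 11.8, 10.8 and 11.5 in Day 4 EtOH, and 24.7, 24.2 and 23.0 in Day 4 OHT. The first 3 groups were close to one another and the last above them, with log2 fold changes between the days of -0.02 (SE 0.10) in EtOH and 0.90 (SE 0.08) in OHT. *Amdhd2*, the deacetylase of N-acetylglucosamine 6-phosphate, had 16.1 to 16.6 CPM in Day 4 EtOH and 26.9 to 28.3 in Day 4 OHT. *A4galt*, which makes the glycolipid Gb3, had 8.55 to 9.83 and 14.6 to 15.95 CPM. Of 24 genes of this list tested, 8 were called higher at Day 4 and 5 lower, with a median log2 fold change of 0.04.

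*Exosc6* headed the Day 4 ratios, but its counts were uncertain. *Exosc6*, a subunit of the RNA exosome, lies wholly within *Aars*, the alanyl-tRNA synthetase gene, on the same strand of chromosome 8 (111056339 to 111057664 within 111033144 to 111057664). Its expected count was 0, 0 and 9.37 in Day 4 EtOH against 591, 647 and 600.5 in Day 4 OHT and 229 to 386 at Day 2, and the posterior SD, RSEM's own measure of how far shared reads leave a count undetermined, was 31.9 to 39.9 counts outside Day 4 EtOH. *Aars* had the same posterior SDs and ran the opposite way, at 752 to 772 CPM in Day 4 EtOH, 519 to 532 in Day 4 OHT and 482 to 582 at Day 2. No fold change is drawn from *Exosc6* for this reason. With *Exosc6* counted, the posterior SD was over 0.1 of the count in at least 1 library for 6 members (4.35%), beside 1.47% of genes at the minimum level. The other 5 were the pseudogenes *Gm2446*, *Gm10335* and *Gm14303* and the U1 small nuclear RNA genes *Rnu1a1* and *Gm23804*. The last 2 had equal values in 11 of 12 libraries (37.2 to 46.3 CPM in Day 4 EtOH and 61.5 to 66.5 in Day 4 OHT), so that they count as 1 signal. *Gm2446* had 0 to 7.18 CPM in the other groups and 8.23 to 8.46 in Day 4 OHT.

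Among members with well-determined counts, *Ephx2*, *Id4*, *Prkar2b* and *Pcsk1* had the largest Day 4 ratios. *Ephx2* (chromosome 14, 66084374 to 66124500, minus strand), the soluble epoxide hydrolase, which converts lipid epoxides to diols, stood at 17.5, 17.1 and 15.99 CPM in Day 2 EtOH, 19.6, 19.05 and 19.3 in Day 2 OHT, 14.5, 14.4 and 15.3 in Day 4 EtOH, and 42.2, 36.4 and 36.7 in Day 4 OHT. Its Day 2 OHT libraries already lay above those of EtOH without overlap. *Id4* (chromosome 13, 48261228 to 48266026, plus strand), an inhibitor that binds basic helix-loop-helix factors, had 2.39, 2.38 and 2.86 CPM in Day 2 EtOH, 2.83, 2.88 and 2.20 in Day 2 OHT, 2.36, 2.46 and 2.81 in Day 4 EtOH, and 6.02, 6.502 and 5.79 in Day 4 OHT. The other 3 groups overlapped, so that the level stood out in Day 4 OHT alone. *Prkar2b*, a regulatory subunit of protein kinase A, had 2.49 to 3.53 CPM in Day 4 EtOH and 6.30 to 7.19 in Day 4 OHT. *Pcsk1*, a protease that processes prohormones, had 2.73 to 2.94 and 5.33 to 6.79 CPM.

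Apart from *Exosc6*, the largest decreases between the days in EtOH were those of *Pgm1*, *Aire* and *Cox6b2*. *Cox6b2*, the testis form of a cytochrome c oxidase subunit, had 6.65 to 7.66 CPM in Day 2 EtOH, 2.70 to 3.03 in Day 4 EtOH and 5.77 to 6.15 in Day 4 OHT, so that it was lower at Day 4 in both arms. *Ifrd1*, an interferon-related regulator and one of the 6 most abundant members, had 106 to 108 CPM in Day 2 EtOH, 102 to 105 in Day 4 EtOH and 161 to 171 in Day 4 OHT, and was high in Day 4 OHT alone.

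The next Day 4 ratios were those of *Lnx1*, a ubiquitin ligase that acts on NUMB, *Tuft1* (tuftelin), *Lrrc34*, a leucine-rich repeat gene of pluripotent cells, *Zfp689*, a zinc finger gene, and *Uckl1*, a uridine-cytidine kinase-like gene. *Lnx1* had 4.32 to 4.76 CPM in Day 2 EtOH, 1.83 to 2.54 in Day 4 EtOH and 4.34 to 4.69 in Day 4 OHT, so that it was low in Day 4 EtOH and at its Day 2 level in OHT. *Lrrc34* had 41.8 to 43.3 CPM in Day 2 EtOH, 44.5 to 49.2 in Day 2 OHT, 26.2 to 28.5 in Day 4 EtOH and 55.2 to 57.0 in Day 4 OHT. It was thus below every Day 2 library in Day 4 EtOH and above every one in Day 4 OHT. *Tuft1*, *Zfp689* and *Uckl1* had 3.82 to 4.06, 4.36 to 4.99 and 5.52 to 6.26 CPM in Day 4 EtOH and 7.65 to 8.67, 9.24 to 10.3 and 11.5 to 12.4 in Day 4 OHT.

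The developmental regulators gave 5 members, *Id4* and 4 more with different courses. *Bmi1*, a subunit of Polycomb repressive complex 1, had 4.71 to 5.60 CPM in Day 2 EtOH, 5.78 to 5.96 in Day 4 EtOH and 10.9 to 12.2 in Day 4 OHT. Its upstream neighbour *Commd3*, 786 bases away on the same strand of chromosome 2, was also a member, and reads that run from one gene into the next cannot be told apart by gene counts. *Klf15*, a Krüppel-like factor, had 4.38 to 4.88 CPM in Day 4 EtOH and 8.99 to 9.62 in Day 4 OHT. *Aire*, the regulator of self-antigens in the thymus, went from 12.4 to 13.5 CPM in Day 2 EtOH to 4.67 to 4.82 in Day 4 EtOH and 9.18 to 10.2 in Day 4 OHT. *Zfp521*, a zinc finger regulator, had 4.71 to 6.23, 2.81 to 3.47 and 6.12 to 6.32 CPM in the same groups. Thus *Bmi1* and *Klf15* were high in Day 4 OHT, whereas *Aire* and *Zfp521* were low in Day 4 EtOH. Of the 23 genes of the list tested, 11 were called higher at Day 4 and 5 lower (median log2 fold change 0.33).

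The largest upward changes between the days in OHT were those of *Tchh* (trichohyalin, of hair follicles), *Ccn2*, *Amotl2* and *Sntb1*, and all 4 also went up in EtOH. *Ccn2* encodes a matricellular growth factor and *Amotl2* an angiomotin, and both are known targets of the factor YAP. *Ccn2* had 5.70, 6.42 and 6.34 CPM in Day 2 EtOH, 7.51, 7.10 and 6.80 in Day 2 OHT, 15.7, 15.3 and 13.0 in Day 4 EtOH, and 24.7, 24.8 and 24.9 in Day 4 OHT. The step between the days exceeded the step between the treatments, with log2 fold changes of 1.23 (SE 0.12) in EtOH and 1.82 (SE 0.09) in OHT against 0.76 (SE 0.08) at Day 4. *Amotl2* had 12.3 to 12.6, 31.3 to 33.0 and 49.3 to 50.3 CPM in Day 2 EtOH, Day 4 EtOH and Day 4 OHT. *Sntb1*, a syntrophin of the dystrophin complex, had 2.99 to 3.42, 5.88 to 7.29 and 9.75 to 10.9 CPM, and *Tchh* 1.122 to 1.29, 3.24 to 3.90 and 6.68 to 7.63 CPM.

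Other adhesion and cytoskeleton members were *Myh9*, *Iqgap2*, *Myo6*, *Efna3* and *Carmil3*. *Myh9*, the heavy chain of non-muscle myosin IIA, had 357, 369 and 372 CPM in Day 2 EtOH, 379, 409 and 414 in Day 2 OHT, 355, 354 and 372 in Day 4 EtOH, and 549, 549.8 and 544 in Day 4 OHT, with the EtOH libraries of the 2 days overlapping. *Iqgap2*, a scaffold of actin and small GTPases, had 28.3 to 31.7 CPM in Day 4 EtOH and 46.9 to 49.6 in Day 4 OHT. The motor *Myo6* (5.99 to 6.28 and 9.90 to 10.7 CPM), the ephrin *Efna3* (2.76 to 3.11 and 4.69 to 4.89 CPM) and the capping protein regulator *Carmil3* (1.75 to 2.44 and 3.46 to 4.17 CPM) were lower in Day 4 EtOH than in every Day 2 library. Of 40 genes of the list tested, 26 were called higher at Day 4 and 5 lower, and the median log2 fold change was 0.48.

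Feedback inhibitors of ERK gave *Dusp4* and *Dusp6*, which remove phosphates from ERK. *Dusp6* was higher at Day 4 in both arms, at 35.6 to 37.7 CPM in Day 2 EtOH, 37.3 to 39.5 in Day 2 OHT, 52.9 to 55.6 in Day 4 EtOH and 84.5 to 85.3 in Day 4 OHT. *Dusp4* had 19.0 to 21.2, 22.0 to 24.1, 16.7 to 17.8 and 32.3 to 33.7 CPM in the same order, so that it was lowest in Day 4 EtOH. The list was mixed, with 10 of 27 genes called higher at Day 4 and 4 lower (median 0.06), the lowest being the immediate early gene *Egr1* (-1.26). *Nr0b1*, the nuclear receptor DAX1, was the member among 18 pluripotent cell markers, of which 11 were called higher and 4 lower (median 0.16). It had 46.1 to 50.8 CPM in Day 2 EtOH, 41.5 to 45.8 in Day 2 OHT, 64.9 to 65.4 in Day 4 EtOH and 100.0 to 103 in Day 4 OHT, with OHT below EtOH at Day 2.

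The Wnt members were *Dact1* and *Dact2*, which bind Dishevelled. *Dact1* had 12.7 to 13.3 CPM in Day 2 EtOH, 7.32 to 8.93 in Day 4 EtOH and 13.1 to 15.1 in Day 4 OHT, and *Dact2* 16.8 to 17.9, 13.8 to 15.2 and 22.0 to 24.0 CPM. In Day 4 OHT, *Dact1* thus lay near its Day 2 level and *Dact2* above every Day 2 library. Of 22 genes of the Wnt list tested, 9 were called higher at Day 4 and 7 lower (median -0.05).

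Lipid and mitochondrial metabolism gave *Pltp* (phospholipid transfer protein), *Lrp3* (a receptor of the LDL receptor family), *Acot13* (an acyl-CoA thioesterase), *Idh2* (mitochondrial isocitrate dehydrogenase), *Apoc1* (an apolipoprotein) and *Sirt3* (a mitochondrial deacetylase). *Pltp* had 20.4 to 23.0 CPM in Day 2 EtOH, 24.7 to 26.5 in Day 2 OHT, 16.6 to 17.9 in Day 4 EtOH and 34.6 to 35.1 in Day 4 OHT, with no overlap between treatments on either day. *Idh2* had 82.1 to 83.8, 85.4 to 88.8, 64.7 to 67.7 and 106 to 111 CPM. *Apoc1* (9.94 to 10.2 and 15.8 to 16.3 CPM at Day 4 in EtOH and OHT), *Acot13* (11.1 to 14.3 and 19.5 to 21.6 CPM), *Sirt3* (10.5 to 11.1 and 16.1 to 17.03 CPM) and *Lrp3* (2.02 to 3.21 and 4.48 to 5.28 CPM) likewise did not overlap, as the selection required. Of 39 genes of this list tested, 24 were called higher and 4 lower (median 0.27). Outside the group, *Apoe* was at 1.66.

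In the glutathione, ferritin and lipid peroxide list, 20 of 32 genes tested were called higher at Day 4 and 2 lower (median 0.23), and the members were *Ephx2* and the glutathione transferases *Gstt2* (3.26 to 3.73 CPM in Day 4 EtOH and 6.06 to 6.63 in OHT) and *Gstm2* (6.34 to 8.24 and 10.96 to 11.99 CPM). Of 36 DNA repair genes tested, 10 were called higher and 7 lower (27.8% and 19.4%, near the shares of all genes, with a median of 0.04), and the member was the glycosylase *Neil3* (7.67 to 8.48 and 11.4 to 12.9 CPM). Of 33 germline and meiosis genes, 15 were called higher and 7 lower (median 0.14), with *Spata6* (6.53 to 7.13 and 11.4 to 12.5 CPM) and *Ccdc18* (28.2 to 28.4 and 41.4 to 45.2 CPM) as members. No member came from the primitive endoderm markers (0 of 7 called higher and 1 lower, with 1 higher at an unadjusted p below 0.05 and 0 called in edgeR), trophectoderm markers (3 of 7 higher and 0 lower, with 1 lower at an unadjusted p and 1 called in edgeR), fibroblast feeder markers (0 of 2 in either direction, with 1 higher at an unadjusted p and 1 called in edgeR) and two-cell-like state markers (0 tested). The summed trophectoderm markers had 160 to 171 CPM at Day 2, 130 to 131 in Day 4 EtOH and 151 to 155 in Day 4 OHT, which is the order of the glycolysis members, and their part in the values above was not tested. The primitive endoderm markers summed to 368 to 376 CPM in Day 2 EtOH, 397 to 437 in Day 2 OHT, 460.0 to 469 in Day 4 EtOH and 426 to 446 in Day 4 OHT, with the treatments in opposite order on the 2 days and without overlap, and their part was likewise not tested.

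**Figure D5:**
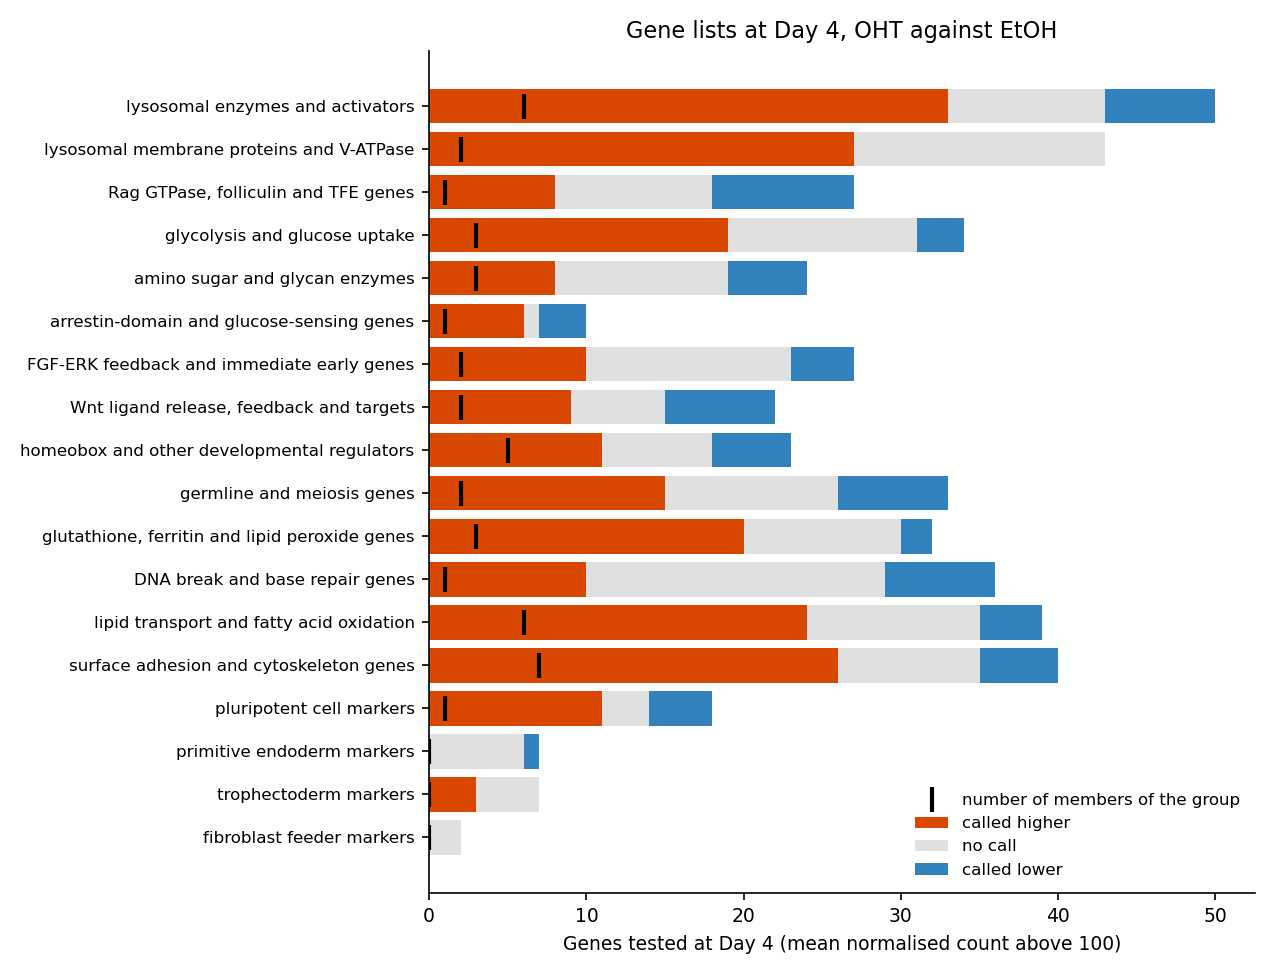
Number of genes of each list tested at Day 4 (bar length), split into those DESeq2 called higher in OHT (orange), without a call (grey) and lower (blue), with a black tick at the number of members each list held. The two-cell-like state list had no gene tested and is not drawn. Most bars hold more orange than blue, among them those of lysosomal membrane proteins and glycolysis, with 27 of 43 and 19 of 34 genes higher. The folliculin and Wnt lists are split.

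Other features of the members are given as a description. Of the 138, 133 (96.4%) were protein-coding, beside 94.2% of genes at the minimum level, and 4 (2.9%, *Azin2*, *Pnrc1*, *Orai3* and *Krcc1*) were on the study's list of PRDM10-bound genes, beside 3.69%. Their median level, on which the selection set a minimum, was 7.68 CPM, beside 28.8 CPM, and 84 of them lay under 10 CPM. The longest transcript had a median length of 2646 bases and a GC content of 51.6%, beside 3361 bases and 49.4%. The X chromosome carried 12 members (8.7%), beside 3.32% of genes. Of these 12, 7 had a lower CPM at Day 4 than at Day 2 in EtOH and 10 a higher one in OHT. Among all 138 members, 79 had a lower CPM at Day 4 than at Day 2 in EtOH and a higher one in OHT, 29 a lower one in both arms and 30 a higher one in both. The median Day 4 log2 ratio of all 376 X-linked genes was 0.02. The median coefficient of variation of the members between libraries of a group was 4.38% to 6.07%, and the requirement of no overlap at Day 4 bears on this spread. RSEM's effective length, which moves when other transcripts of a gene are found, was longer in all 3 OHT libraries than in all 3 EtOH libraries at Day 4 for 12 members (8.7%) and shorter for 5 (3.62%), beside 9.79% and 5.29% of genes at the minimum level.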

How the data were processed

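Total RNA of 12 mESC libraries (4 groups of 3) was sequenced in pairs, and the authors aligned reads with STAR 2.6.0c and quantified genes with RSEM on GRCm38.p6 and GENCODE annotation. The deposited gene tables hold the expected count, not normalised, and TPM, scaled by the authors to the same total in every library. The authors' comparison tables (fold changes and p-values from DESeq2 1.22.2) were not used. No columns of other samples were present.

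Members and gene lists were chosen with earlier results of these data known, and lists were taken from an earlier analysis of them, so that neither is independent support. CPM was computed from expected counts and their totals. For tests, expected counts were rounded and fitted with DESeq2 1.42.0 (R 4.3.3; Wald test, Benjamini-Hochberg adjustment over all genes). Each contrast was fitted on its 2 groups, the difference on all 4, and calls required both a mean of more than 100 normalised counts and an adjusted p under 0.05. edgeR 4.0.16 (quasi-likelihood), TMM factors, library totals, effective length offsets, a replicate block, no minimum count and leaving out each library were alternatives. The fits were tested on simulated data. Tables were handled in Python 3.11.15 with pandas 2.3.3. Depth (35017667 to 41409992 counts) leaves members near 3 CPM with about 100 counts a library, and errors are spreads between libraries.

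Named genes were the 12 members with the largest Day 4 ratio, the 6 with the highest mean CPM, the members of each list (up to 6 by Day 4 ratio) except 1 gene that is not reported here, the 4 with the largest OHT increase and the 4 with the largest EtOH decrease, the 2 genes on each side of each threshold, and members with shared reads. Genes outside these were named after their values were seen. Gene positions are those of GENCODE on GRCm38, and promoters are RefSeq windows, of which 106 members had one.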

Additional observations from a re-analysis of the deposited data

Results flagged for a closer look

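The OHT effect differed between Day 2 and Day 4 for 130 members in the test of the difference itself (DESeq2, 4 groups), all with the larger effect at Day 4. The selection required a ratio near 0 on one day and of 0.6 or more on the other, so the count follows from it and is given as a value only.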

How the results depend on the processing

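Membership depended on the thresholds. A minimum mean CPM of 1 gave 208 members and one of 10 gave 54, a Day 2 window of 0.15 gave 72, and ratios of deposited TPM gave 59, of which 49 were shared with the 138. Pseudocount 1, DESeq2 size factors and TMM factors gave 98, 162 and 168, and leaving out each library gave 124 to 163. The few Day 2 calls moved most: 9 higher in edgeR and 8 with library totals, and 1 lower with library totals and 1 with the replicate block. Leaving out each library gave 1 to 4 higher and 1 to 3 lower at Day 2, the lowest, 1 of each, without Day 2 EtOH replicate 1, and 1 lower without Day 2 EtOH replicate 2 and without Day 2 OHT replicates 2 and 3. The cause was not tested. At Day 4, 134 to 137 members stayed higher without each library, and 131 with effective length offsets, where 5 lost the call: *Spats2l* went from a log2 fold change of 0.65 to 0.0096, and *Mapk8ip2* (0.47), *Ephb6* (0.42), *Mvb12b* (0.54) and *Rnf157* (0.75) stayed above 0. For the other counts the ranges without each library were 119 to 126 for the difference, 55 to 62 lower and 8 to 9 higher in EtOH, 71 to 73 higher and 10 to 12 lower in OHT, and 216 to 236 higher and 58 to 63 lower over the list genes. Same-numbered libraries deviated together with correlations between -0.191 and 0.207, so the numbers were not taken as pairs. With a replicate block, 136 members were higher at Day 4, 123 for the difference, 58 lower in EtOH and 71 higher in OHT. Of the named genes, all 648 Day 4 fold changes in edgeR, with TMM factors, with the block and without each Day 4 library kept direction and call. Of the 3 higher and 2 lower Day 2 calls, 1 of each was shared with the block.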

Other observations

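The X-linked members, named after their values were seen, were *Hmgn5*, *Rnf128*, *Zfp711*, *Nup62cl*, *Mageh1*, *Armcx1*, *Zxdb*, *Usp11*, *Nr0b1*, *Cnksr2*, *Atp6ap2* and *Sat1*. Over all 376 X-linked genes tested at Day 4, DESeq2 called 106 higher and 70 lower in OHT (28.2% and 18.6%), near the 23.5% and 21.7% of all genes tested. Chromosome 7 carried 16 members (11.6%), beside 7.49% of genes at the minimum level.

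Over the 19 lists together, 236 of 469 genes tested were called higher in OHT at Day 4 and 73 lower, with a median log2 fold change of 0.19. The lists held 45 of the 138 members, and the other 93 fell in none of them.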
